A study of Sus scrofa with 15 samples.

Results

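The acute-phase response is the change in the proteins that the liver secretes after infection or injury. Cytokines such as IL-6 and IL-1 act on hepatocytes through STAT3, C/EBP factors and NF-κB, and the secretion of positive acute-phase proteins goes up while that of negative ones, albumin among them, goes down. In pigs, haptoglobin, C-reactive protein and ITIH4, which is also known as pig major acute-phase protein, belong to the positive group and are used as plasma markers of inflammation.

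The transcripts of 9 such proteins were examined, chosen by name as 5 positive proteins (HP, ITIH4, ITIH3, ORM1 and CRP) and 4 negative ones (ALB, TTR, AHSG and RBP4). Of the 31908 genes in the count table, 7 rows could be paired with a member's symbol through its Ensembl identifier. No row was paired with the symbol of HP (haptoglobin) or of ORM1 (orosomucoid), and these genes are not analysed here. All 7 paired genes passed the filter on low counts and were among the 12774 genes tested.

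The data came from livers of male crossbred piglets (Duroc x Large White x Landrace) in the growing stages, of which the study had 12. Piglets of the CON group were injected intraperitoneally with sterile saline, and those of the LPS group with lipopolysaccharide, the outer membrane component of Gram-negative bacteria, at 80 μg/kg, and the liver was taken 4 h later. Each group had 3 libraries of fragmented polyadenylated RNA that had not been incubated with the m6A antibody, the input of an m6A immunoprecipitation experiment. The comparison asked how hepatic mRNA levels of these proteins differed 4 h after the challenge.

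The labels do not say whether each library came from 1 piglet, so p-values measure the spread between these libraries. Total counts ranged from 4348478 to 19967417 per library, and the 7 genes held between 3.57% and 6.01% of them. LPS replicate 2 was nearer to the CON libraries than to the other LPS libraries. Over tested genes, its log2 values correlated with those of the CON libraries at 0.923 to 0.945. With those of LPS replicates 1 and 3 they correlated at 0.907 and 0.852, while LPS replicates 1 and 3 correlated with each other at 0.903. Results are also given without LPS replicate 2, a choice made after seeing the data. In bulk liver, fewer cells of a type and less RNA per cell cannot be told apart.

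ITIH4 encodes a plasma protein of the inter-α-trypsin inhibitor heavy chain family (ENSSSCG00000011453, chromosome 13, 34915855 to 34948229, minus strand). Its level in CPM, counts set to a common library size by the trimmed mean of M values (TMM), was 2062, 1885 and 2820 in the CON libraries and 12627, 5574 and 11326 in the LPS libraries. Every LPS library lay above every CON library, with LPS replicate 2 the lowest of the 3. The mean went from 2256 ± 496 (SD, n = 3) to 9842 ± 3753 (SD, n = 3), a log2 fold change of 2.13 with an SE of 0.41. In fold terms this was 4.36 with a 95% interval of 2.32 to 8.21, and the Benjamini-Hochberg adjusted p of edgeR's quasi-likelihood test was 0.0982.

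CRP encodes C-reactive protein, a pentraxin that binds phosphocholine on microbes and damaged cells (ENSSSCG00000006403, chromosome 4, 90722352 to 90805236, plus strand). Its CPM was 225, 52.3 and 279 in the CON libraries and 1285, 525 and 1745 in the LPS libraries. The groups did not overlap, although CON replicate 2 was well below the other CON libraries and LPS replicate 2 well below the other LPS libraries. RefSeq lists 2 pig genes under this symbol and the table pairs 1 row with it, so reads of a close copy could be missing or included. The log2 fold change was 2.67 with an SE of 0.65, or 6.38-fold with a 95% interval of 2.32 to 17.6, and the adjusted p of the edgeR quasi-likelihood test was 0.179.

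ITIH3 encodes another heavy chain of the same family, which is attached to hyaluronan in the extracellular matrix (ENSSSCG00000011451, chromosome 13, 34892369 to 34937568, plus strand). It was counted 106, 76 and 153 times in the CON libraries and 1186, 38 and 4563 times in the LPS libraries, which gave a CPM of 9.47, 11.9 and 15.1 against 259, 6.22 and 312. LPS replicates 1 and 3 were far above every CON library, whereas LPS replicate 2 was below all of them, and the groups overlapped. The log2 fold change was 3.98 with an SE of 1.06 and a 95% interval of 1.59 to 6.38, and the adjusted p of the edgeR quasi-likelihood test was 0.218.

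**Figure D1:**
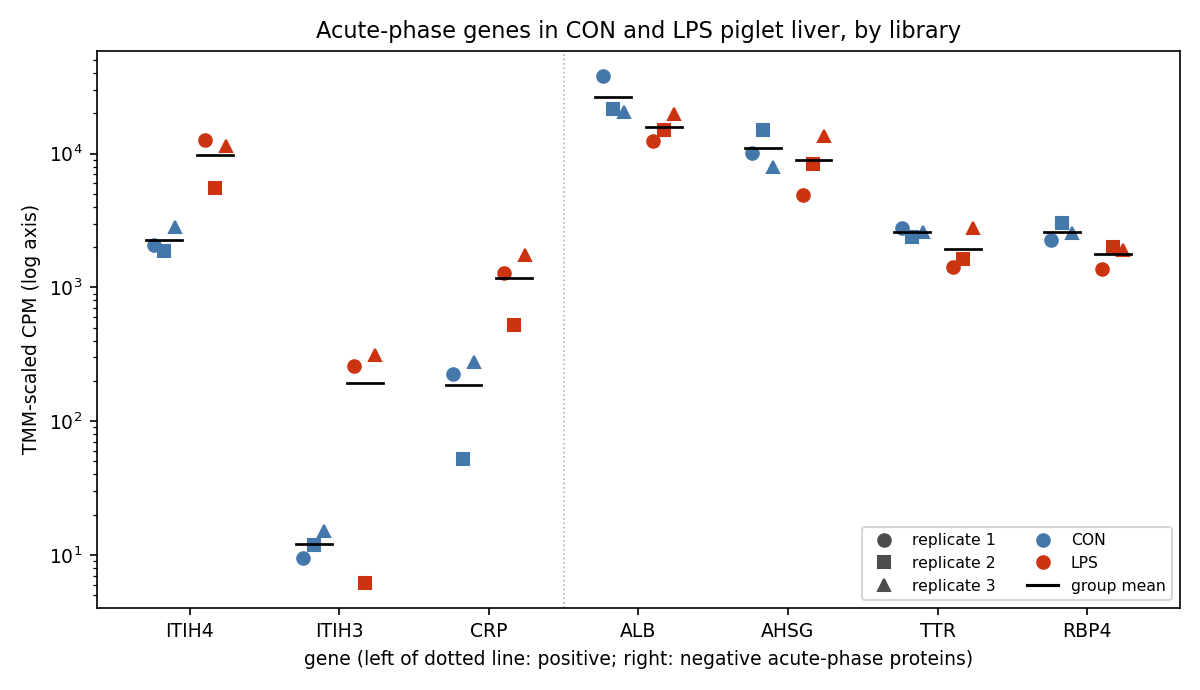
TMM-scaled CPM of each gene (log axis) in the 3 CON and 3 LPS libraries, with 1 point per library, its shape giving the replicate number, and a line at each group mean. ITIH4 and CRP are higher in all 3 LPS libraries, ITIH3 is higher in LPS replicates 1 and 3 only, and ALB and RBP4 are lower in all 3.

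ITIH3 and ITIH4 are neighbours on chromosome 13, and the exons that the table assigns to them overlap each other and those of ITIH1. Of the exon bases of the ITIH3 row, 70.5% are also exon bases of another gene, and 60.2% are shared with ITIH1 on the same strand. For ITIH4, 18.5% of exon bases are shared, none of them with a gene on its own strand. No source used here says how reads on shared bases were counted, so the ITIH3 count is uncertain. The ITIH1 row, 97.7% of whose exon bases are shared, was at 3.22, 4.53 and 5.24 CPM in the CON libraries and at 0.872, 1.64 and 0.683 CPM in the LPS libraries, the opposite direction to ITIH3. CRP, ALB, TTR and AHSG share no exon base with another gene, and RBP4 shares 729 of its 3650 exon bases with FFAR4 on the opposite strand. The ALB row nonetheless runs into the span of another gene on the same strand. Whether the ALB and CRP rows hold exons of other genes was not tested.

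**Figure D2:**
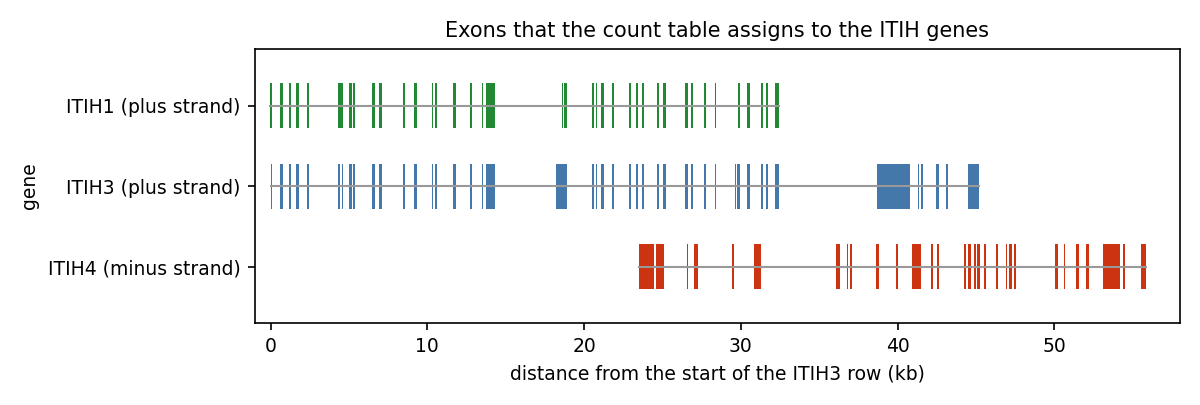
Exons assigned to the ITIH4, ITIH3 and ITIH1 rows of the count table, drawn to scale by distance in kb from the start of the ITIH3 row. Most ITIH1 exons lie at the same places as ITIH3 exons, and 70.5% of the exon bases of ITIH3 are shared with other genes.

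None of the 7 genes passed the edgeR quasi-likelihood test (adjusted p below 0.05 and a change of at least 1.5-fold), a test that 0.0548% of all genes passed. Those that passed were all higher in the LPS group, and 0 of all tested genes passed as lower. At an unadjusted p below 0.05 in edgeR, 3 of 3 positive genes were higher in the LPS group, against 6.18% of all tested genes, and 0 of 4 negative genes were lower, against 6.33%. Without LPS replicate 2, all 3 positive genes passed the adjusted edgeR test as higher, against 3.76% of genes, with a log2 fold change of 2.41 for ITIH4 (adjusted p = 0.00654), 3.03 for CRP (adjusted p = 0.0161) and 4.55 for ITIH3 (adjusted p = 0.000281). None of the 4 negative genes passed as lower, against 3.45% of genes. DESeq2 on all 6 libraries also placed the 3 positive genes past the threshold, with adjusted p of 3.76e-05 for ITIH4, 0.000453 for CRP and 0.0434 for ITIH3, where 1.85% of genes were called higher. None of the negative genes was called by DESeq2, where 0.951% of genes were called lower. Of the log2 fold changes of all tested genes, those of ITIH4, CRP and ITIH3 stood at the percentiles 98.5, 99.2 and 99.7. An exact permutation test of 3 libraries against 3 cannot give a two-sided p below 0.1, and none is printed for single genes.

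**Figure D3:**
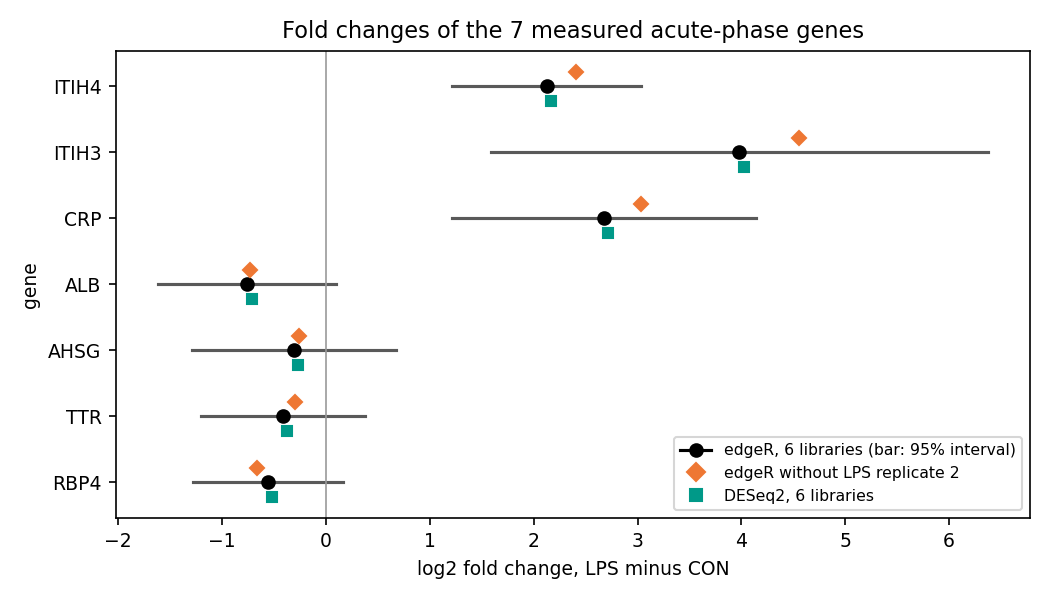
Log2 fold change (LPS minus CON) of the 7 genes from edgeR on 6 libraries with 95% intervals (black), from edgeR without LPS replicate 2 (orange) and from DESeq2 on 6 libraries (green). The intervals of ITIH4, CRP and ITIH3 lie above 0, and those of ALB, AHSG, TTR and RBP4 include 0.

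The negative proteins were lower on average in the LPS group by smaller amounts. ALB encodes albumin, the main protein of plasma and a carrier of fatty acids and bilirubin (ENSSSCG00000008948, chromosome 8, 69531487 to 69718304, plus strand). Its CPM was 38011, 21610 and 20307 in the CON libraries and 12381, 15104 and 19676 in the LPS libraries. The groups did not overlap, but LPS replicate 3 was just below CON replicate 3, and CON replicate 1 stood well above the rest. The log2 fold change was -0.76 with an SE of 0.38, and the 95% interval of -1.62 to 0.10 included 0 (edgeR adjusted p = 0.461).

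RBP4 encodes the plasma carrier of retinol (ENSSSCG00000010479, chromosome 14, 105036770 to 105044765, minus strand). It was at 2245, 3034 and 2530 CPM in the CON libraries and at 1381, 2019 and 1905 CPM in the LPS libraries. Again every LPS library was below every CON library, here with LPS replicate 1 the lowest. The log2 fold change was -0.56 with an SE of 0.32 and a 95% interval of -1.28 to 0.16, and the edgeR adjusted p was 0.515.

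TTR encodes transthyretin, which carries thyroxine and binds RBP4 in plasma (ENSSSCG00000023686, chromosome 6, 115496193 to 115503977, plus strand). Its CPM was 2797, 2367 and 2581 in the CON libraries and 1420, 1629 and 2767 in the LPS libraries. LPS replicates 1 and 2 were below the CON group, while LPS replicate 3 was within it. The log2 fold change was -0.41 with an SE of 0.35 and a 95% interval of -1.20 to 0.38 (edgeR adjusted p = 0.670). When counts were scaled to library totals instead, the 3 LPS libraries were all below the CON libraries.

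AHSG encodes fetuin-A, a plasma glycoprotein that inhibits calcification (ENSSSCG00000011799, chromosome 13, 124426308 to 124438840, plus strand). Its CPM was 10075, 15096 and 7971 in the CON libraries and 4909, 8314 and 13529 in the LPS libraries. LPS replicate 1 was the lowest of all 6 libraries and LPS replicate 3 the second highest, so the groups overlapped. The log2 fold change was -0.31 with an SE of 0.44 and a 95% interval of -1.29 to 0.67 (edgeR adjusted p = 0.806).

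In CPM, 2 of the 3 positive genes (ITIH4 and CRP) were higher in every LPS library than in any CON library, a pattern that 6.52% of all tested genes showed. In the other direction, 2 of the 4 negative genes (ALB and RBP4) were lower in every LPS library, and 9.8% of all tested genes were. In TMM-scaled CPM, LPS replicate 1 was the lowest library for all 4 negative genes. Against the mean of the CON libraries, its log2 differences were -1.05 for ALB, -0.86 for TTR, -1.12 for AHSG and -0.90 for RBP4. In LPS replicate 3 they were -0.38, 0.10, 0.34 and -0.44. The lowest library depended on the scaling. With counts scaled to library totals, RBP4 was lowest in LPS replicate 3 (1400 CPM, against 1461 in LPS replicate 1). The positive genes had their largest difference from the CON mean in LPS replicate 1 for ITIH4 (2.51) and in LPS replicate 3 for CRP (3.55) and ITIH3 (4.71), and the smallest in LPS replicate 2 for all 3 (1.33, 1.82 and -0.94).

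Levels between genes were compared per length, as TPM, the count per base of the exons assigned to a gene, scaled to the same total in every library. In the CON libraries ALB and AHSG had the highest TPM of the 7 genes, followed by TTR, RBP4, ITIH4, CRP and ITIH3. The mean TPM in the CON group was 10163 ± 4868 for ALB, 11473 ± 5949 for AHSG, 2385 ± 538 for TTR and 1431 ± 474 for RBP4 (SD, n = 3). By TPM, the group means of ALB and AHSG did not differ beyond their spread, but AHSG was above ALB in every library except CON replicate 1. The order by TPM depends on the assigned exon lengths, which were 5319 bases for ALB, 9774 for CRP and 1999 for AHSG. How well these lengths match the transcripts present was not tested. In counts, ALB was above AHSG in every library. ITIH4 had 578 ± 19.9 TPM, CRP 34.7 ± 19.5 TPM and ITIH3 2.33 ± 0.389 TPM in the CON group.

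In the LPS group ITIH4 reached 2506 ± 1333 TPM (SD, n = 3) and moved up this order, from place 5 in each CON library to place 3 in LPS replicates 1 and 3 and place 4 in LPS replicate 2. Among all genes ranked by TPM it stood between 105 and 142 in the CON libraries and between 37 and 68 in the LPS libraries. CRP went from ranks of 1268 to 4965 to ranks of 275 to 644, with a mean of 217 ± 98.0 TPM in the LPS group. ALB went the other way, from ranks of 5 to 10 to ranks of 16 to 26, with 5462 ± 950 TPM in the LPS group. ITIH3 stayed the lowest of the 7 in the LPS group as well, with 33.4 ± 30.3 TPM. By TPM, the lowest library was LPS replicate 3 for ALB (4453), TTR (1552) and RBP4 (628). For AHSG it was CON replicate 3 (5889, against 5899 in LPS replicate 1).

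Ratios between members within a library do not depend on how the libraries were scaled. The reads of CRP per kilobase relative to those of ALB were 0.00322, 0.00132 and 0.00748 in the CON libraries and 0.0565, 0.0189 and 0.0483 in the LPS libraries. The groups were apart, and the geometric means differed 11.8-fold. Leaving out 1 library gave 7.58-fold without CON replicate 2, 18.1-fold without CON replicate 3 and 16.5-fold without LPS replicate 2. For ITIH4 over ALB the ratios were 0.0384, 0.0618 and 0.0984 against 0.723, 0.262 and 0.408, a 6.91-fold difference that became 8.81-fold without LPS replicate 2. ITIH4 over AHSG was at 0.0545, 0.0333 and 0.0942 in the CON libraries and at 0.685, 0.179 and 0.223 in the LPS libraries, again without overlap, and the fold of 5.43 became 3.60 without LPS replicate 1.

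The pair RBP4 and TTR, whose proteins circulate as a complex, had overlapping ratios in the groups. RBP4 over TTR was 0.472, 0.754 and 0.577 in the CON libraries and 0.572, 0.729 and 0.405 in the LPS libraries, and the geometric mean of the LPS group was 0.937 times that of the CON group. ITIH4 over ITIH3 was 292, 213 and 250 in the CON libraries, 65.5 and 48.8 in LPS replicates 1 and 3, and 1203 in LPS replicate 2.

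**Figure D4:**
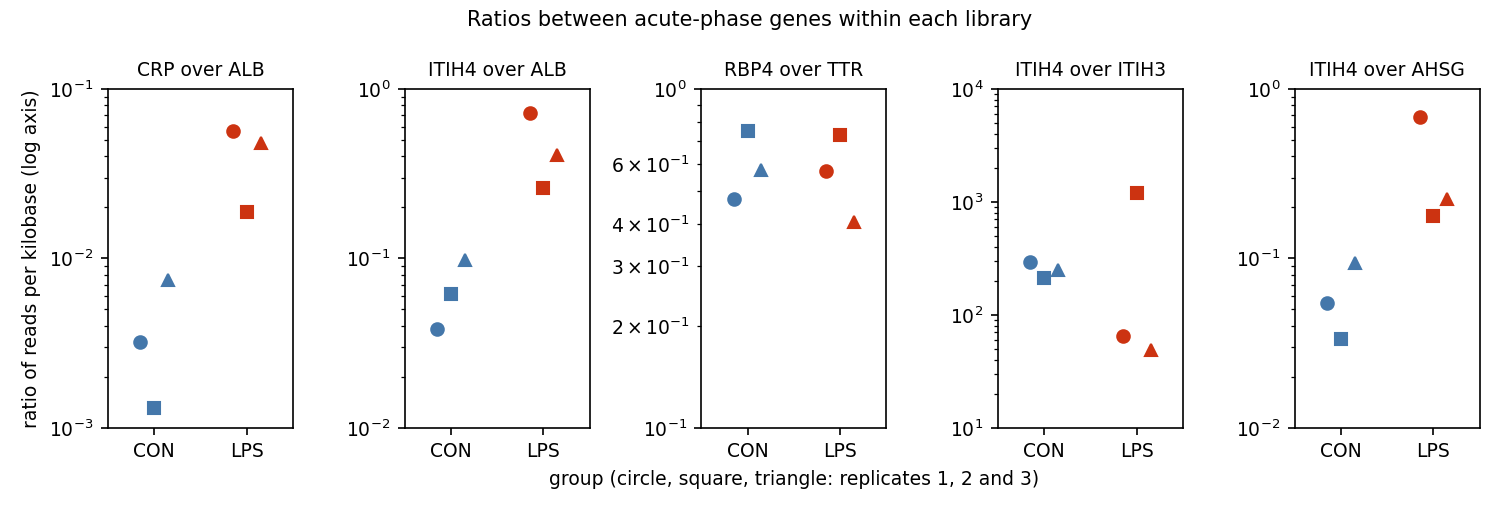
Ratios of reads per kilobase between pairs of acute-phase genes (log axes) in each CON and LPS library, with 1 point per library. CRP over ALB, ITIH4 over ALB and ITIH4 over AHSG are higher in all 3 LPS libraries, while RBP4 over TTR and ITIH4 over ITIH3 overlap between the groups.

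Together the 3 positive genes took 4.14%, 4.43% and 8.53% of the counts of the 7 genes in the CON libraries, and 41.4%, 18.4% and 26.1% in the LPS libraries. The 95% Wilson intervals of these shares, which cover counting error only, reached at most 0.243 percentage points to either side, far less than the spread between libraries. ALB alone held 4.12%, 2.33% and 1.98% of all counts in the CON libraries and 1.31%, 1.68% and 1.44% in the LPS libraries.

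The genes most like each member were found by the mean absolute difference of their log2 levels, each centred on its own mean, over the 6 libraries, among 3473 well expressed candidates. COX17, a copper chaperone of cytochrome oxidase, was most like ITIH4 with a difference of 0.157. CXCL2, a neutrophil-attracting chemokine, was most like ITIH3 (0.378), and CCL19, a lymphocyte-attracting chemokine, was most like CRP (0.341). The nearest genes to the negative members were ETFA for ALB (0.0734), C4BPB for TTR (0.0681), DNAJC12 for AHSG (0.128) and PACSIN2 for RBP4 (0.0362). Among the members themselves, ALB and TTR were nearest to each other (0.206), and ITIH4 and CRP were too (0.550).

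Of 35 other positive acute-phase proteins listed, 22 were measured and tested, 14 with a positive and 8 with a negative log2 fold change (median 0.30, against 0.01 for all tested genes). The edgeR test called 1 of them, against 0.0548% of all genes. This was LCN2, the iron-siderophore binding lipocalin, at 2.95, 5.00 and 4.94 CPM in the CON libraries and 114, 29.4 and 129 CPM in the LPS libraries. LCN2 rose by 4.41 on the log2 scale with an SE of 0.58 (edgeR adjusted p = 0.0379). This call was kept in 10 of 16 alternatives and was lost in edgeR when any of the 3 CON libraries or LPS replicate 1 was left out (adjusted p up to 0.543) or when at least 10 counts were required in every library (adjusted p = 0.0578), and with limma-voom (adjusted p = 0.0669). Its log2 fold change was between 4.08 and 4.87 over all alternatives. The pentraxin PTX3 had a log2 fold change of 3.41 (SE 0.81, adjusted p = 0.163) in edgeR, which was 5.06 without CON replicate 1, the CON library with 20 counts against 2 and 2, and 2.60 without LPS replicate 3. Without LPS replicate 2, 6 of the 22 passed as higher in edgeR, FGB, FGG, HAMP, LCN2 and PTX3 among them, against 3.76% of all genes. By DESeq2 on all libraries 5 did, FGB, FGG, LCN2 and PTX3 among them, against 1.85% of all genes.

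The fibrinogen chains FGB and FGG, named after their values were seen, had log2 fold changes of 1.45 (SE 0.46) and 1.48 (SE 0.45), below that of ITIH4. FGB was at 12715, 8098 and 9054 CPM in the CON libraries and at 21935, 14561 and 44960 CPM in the LPS libraries, so that its groups did not overlap. HAMP, which encodes the iron hormone hepcidin, was at 287, 245 and 606 CPM in the CON libraries and at 1648, 21.4 and 2499 CPM in the LPS libraries. LPS replicate 2 was thus the lowest library for HAMP, as it was for ITIH3.

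Of 22 other negative acute-phase proteins listed, 19 were tested, and 16 of them had a negative log2 fold change (median -0.40). The edgeR test on all libraries called 0 of them, and it called 0 of all tested genes lower. Without LPS replicate 2 it called 0 of the 19, where 3.45% of all genes were called lower. DESeq2 on all libraries called 0 of the 19, where 0.951% of all genes were called lower. DESeq2 without LPS replicate 2 called 2 of the 19 lower, KNG1 (-1.11, adjusted p = 0.0430) and SERPINA6 (-1.13, adjusted p = 0.0288), which encodes the plasma carrier of cortisol. That setting called 1543 of the 23182 genes fitted, higher and lower together. The share of genes it called lower was not computed, so these 2 calls have no background beside them. At an unadjusted p below 0.05, 2 were lower and 0 higher in edgeR, against 6.33% and 6.18% of all tested genes. The 2 at that p were KNG1, the precursor of bradykinin, with -1.09 (SE 0.34, adjusted p = 0.253), and PON1, the lipoprotein-bound paraoxonase, with -0.98 (SE 0.33, adjusted p = 0.274). APOA2, an apolipoprotein of high-density lipoprotein, had -0.79 (SE 0.43, adjusted p = 0.492), with overlapping groups. Its value was -1.40 without LPS replicate 3 and -0.51 without LPS replicate 2. IGF1, the liver-derived growth factor, had 1.44 (SE 0.68, adjusted p = 0.430) in edgeR, with 30, 9 and 18 counts in the CON and 47, 31 and 20 counts in the LPS libraries. In CPM its lowest value was in LPS replicate 3, and leaving out LPS replicate 1 brought the log2 fold change to 0.66. The median of the 4 negative members was -0.49.

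In the inter-α-trypsin inhibitor family, 4 other genes were tested, and all had negative log2 fold changes in edgeR. They were -2.05 for ITIH1 (SE 0.53, adjusted p = 0.199), -0.34 for ITIH2, -0.18 for ITIH5 and -0.06 for AMBP, which encodes the bikunin light chain that the heavy chains are joined to. Without LPS replicate 2, edgeR called ITIH1 lower and TNFAIP6 higher, where 3.45% of all genes were called lower and 3.76% higher. DESeq2 on all libraries called TNFAIP6 higher, as it did 1.85% of all genes. TNFAIP6, named after its values were seen, transfers the heavy chains to hyaluronan and was below the filter on all 6 libraries, with 3, 1 and 0 counts in the CON libraries and 9, 1 and 109 in the LPS libraries. For the genes that handle haptoglobin and retinol, 7 were tested, 3 with positive and 4 with negative values (median -0.02). The haemoglobin-haptoglobin receptor CD163 had a log2 fold change of -0.24, and 0 of the 7 had groups that did not overlap. Over all tested genes, the groups were apart for 6.52% as higher and 9.8% as lower.

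Of 23 cytokines, receptors, kinases and transcription factors that take part in acute-phase induction or in hepatocyte gene expression, 22 were tested, 13 with positive and 9 with negative values (median 0.28). IL6 itself was below the filter on counts. SOCS3, the feedback inhibitor of STAT3 signalling, was at 17.5, 45.1 and 27.6 CPM in the CON libraries and at 289, 18.8 and 627 CPM in the LPS libraries. Its log2 fold change was 3.38 with an SE of 0.98 (edgeR adjusted p = 0.230), and LPS replicate 2 lay within the CON group. The factors CEBPD and CEBPB had log2 fold changes of 1.36 (SE 0.59, edgeR adjusted p = 0.385) and 1.20 (SE 0.48, edgeR adjusted p = 0.353). LPS replicate 2 lay within the CON group for both. NR1H4, the bile acid receptor, had a log2 fold change of -1.16 (SE 0.37, edgeR adjusted p = 0.256). Without LPS replicate 1 the value of CEBPD was 0.68, and without LPS replicate 3 that of SOCS3 was 2.38. Without LPS replicate 2, the edgeR test called SOCS3, CEBPB and CEBPD higher and NR1H4 and PPARA lower. These were 3 and 2 of the 22, against 3.76% of all genes called higher and 3.45% called lower.

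LPS replicate 2 differed from the other LPS libraries more for some of these genes than for others. LPS replicates 1 and 3 were both above every CON library for 3 of 3 positive members, and LPS replicate 2 was also above for ITIH4 and CRP. Among the other positive proteins this held for 6 (A2M, C9, FGB, FGG, LCN2 and PTX3) of 10 genes, and among the inducing factors for 0 of 9. Over all tested genes LPS replicate 2 was also above for 833 of 2415 genes, or 34.5%. In the other direction both ALB and RBP4 were below every CON library in LPS replicate 2 as well, as were 1252 of 2904 genes, or 43.1%. The differences between these shares were not tested.

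**Figure D5:**
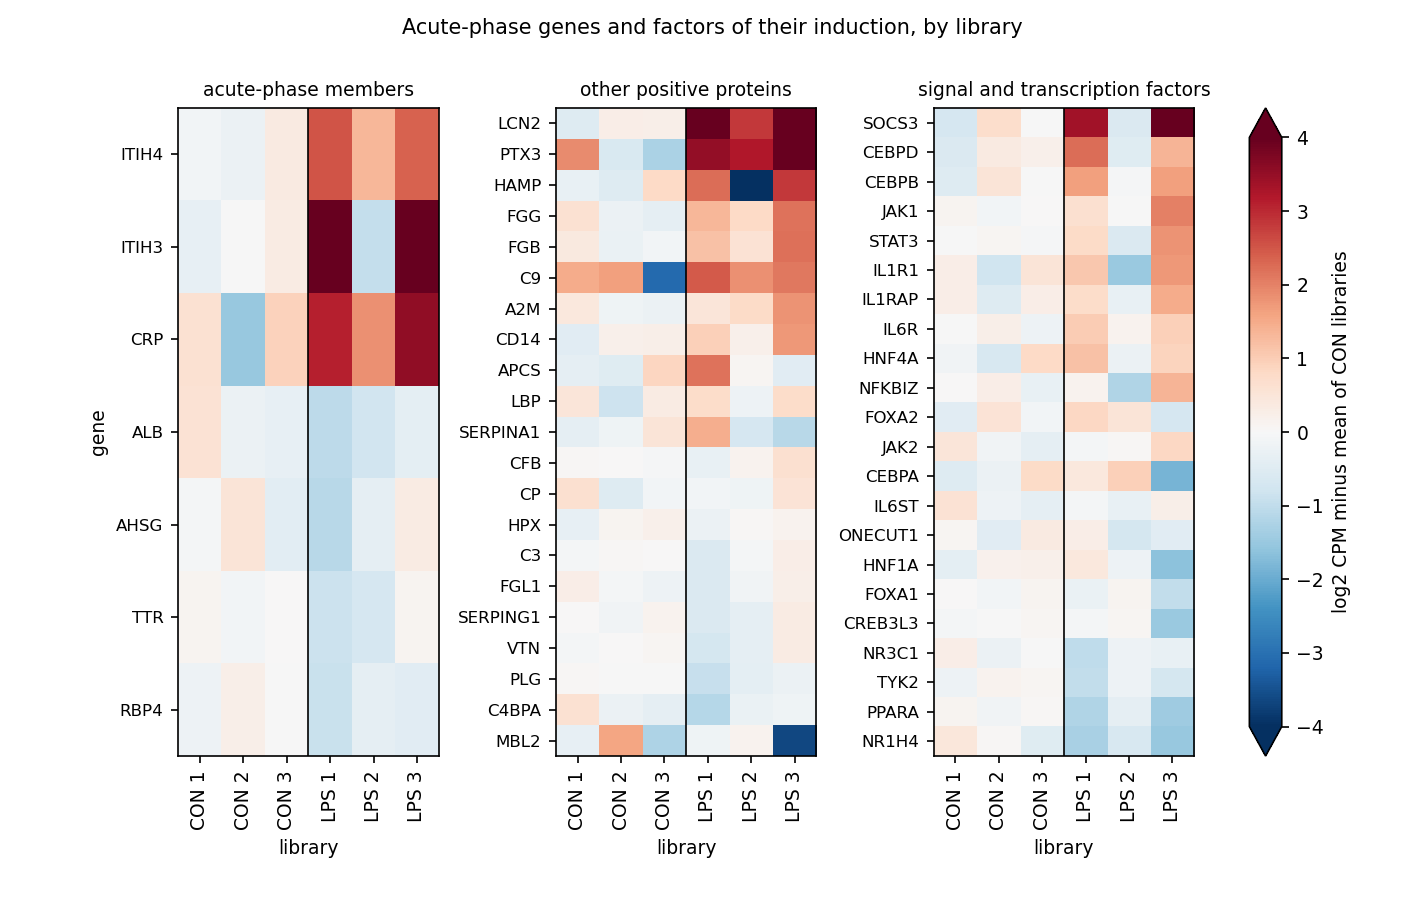
Log2 CPM minus the mean of the CON libraries (colour, saturated beyond -4 and 4) of the members, other tested positive acute-phase proteins and the tested signal and transcription factors, in each library. In LPS replicate 2, ITIH4, CRP, LCN2 and PTX3 are above the CON mean, while ITIH3, HAMP and SOCS3 are below it.

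Markers of the cells that could be in the liver samples were summed beside these results. Of 16 hepatocyte markers that are not plasma proteins, 7 had positive and 9 negative log2 fold changes (median -0.24), and their summed CPM was 10833 to 14430 in the CON and 9286 to 15309 in the LPS libraries. Of 9 neutrophil markers tested, 7 were positive (median 1.89). The summed CPM of all 11 with a row was 36.9 to 63.2 in the CON and 118.9 to 351.7 in the LPS libraries. S100A8, a calcium-binding protein of neutrophils and monocytes, passed the edgeR test (5.34 on the log2 scale, adjusted p = 0.0371), a call that was lost without any 1 CON library, without LPS replicate 1 and with limma-voom (adjusted p = 0.125). Of the defining neutrophil genes, MPO was counted at most 13 times in any library, and MMP8 was at 0 in the CON libraries and counted 18, 5 and 271 times in the LPS libraries. All 11 macrophage markers had negative values (median -0.48), with a summed CPM of 2011 to 3261 in the CON and 1376 to 2316 in the LPS libraries, and LYZ was at 0 in all 6 libraries. The red cell and platelet markers summed to 71.9 to 98.6 CPM in the CON libraries and to 230, 90.1 and 328 CPM in the LPS libraries, with LPS replicate 2 within the CON range. The part of these markers in the values of the 7 genes was not tested.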

How the data were processed

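Input libraries of polyadenylated liver RNA (NEBNext Ultra II Directional kit) from 3 CON and 3 LPS samples were analysed. Per the labels, reads were processed with cutadapt 1.9.3 and HISAT2. The authors deposited raw counts per Ensembl gene with exon positions and length. The submitters' notes name only human and chicken genome builds, so coordinates are given as in the table. Its pig build, annotation, counting program and treatment of strand and multi-mapped reads are not stated in any source used here. CON replicates 1 and 2 each have 2 sequencing entries in the labels and 1 column in the table.

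Counts were filtered (filterByExpr, minimum 10), TMM-scaled and tested with edgeR 4.0.16 (robust quasi-likelihood, R 4.3.3, Benjamini-Hochberg adjustment over all 12774 tested genes), with a threshold of adjusted p below 0.05 and 1.5-fold. DESeq2 1.42.0 and limma 3.58.1 (voom) were alternatives. The test was checked on simulated counts. TPM used the deposited lengths.

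Symbols came from an Ensembl name table, which paired 15029 of 31908 identifiers. All members were named. From each other list, the called genes and the 4 with the largest absolute log2 fold changes were eligible to be named, and other genes (FGB, FGG, A2M, C9, PPARA, SERPINA6, TNFAIP6, MPO, MMP8, LYZ) were chosen after their values were seen. For each member, the most alike gene was also named. A gene eligible by this rule is not reported here. The members and lists were chosen with earlier results of these data known. Counting error is small at these depths for genes with many counts, but not for those with few, such as PTX3, TNFAIP6, ITIH1 and IGF1. The number of libraries limits precision.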

Additional observations from a re-analysis of the deposited data

How the results depend on the processing

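The 7 members kept the sign of their log2 fold change in all 16 refits with other settings, but AHSG came to almost 0 (-0.0033) without LPS replicate 1. The log2 fold change ranged from -0.73 to -0.0033 for AHSG, -0.74 to -0.22 for TTR and -0.72 to -0.40 for RBP4. Of 112 such fold changes, 98 stayed on the same side of the edgeR threshold and 14 newly passed it, all of them of ITIH4, CRP or ITIH3. Log2 fold changes ranged from 1.92 to 2.45 for ITIH4, 2.23 to 3.13 for CRP, 2.74 to 4.59 for ITIH3 and -0.96 to -0.42 for ALB, and their adjusted p reached 0.586, 0.682, 0.708 and 0.815. The number of members called was 0 in the edgeR test, 3 with no filter on low counts, 3 with DESeq2 and 3 with DESeq2 without LPS replicate 2, and it ranged from 0 to 3 when 1 library was left out, with 3 without LPS replicate 2. The number of all genes called was 7, and it became 12 with scaling to total counts, 885 with no filter on low counts, 0 with at least 10 counts in every library, 416 with DESeq2, 2 with limma-voom, 1543 with DESeq2 without LPS replicate 2, and 0 to 982 when 1 library was left out (982 without LPS replicate 2, 58 without LPS replicate 3 and 1 without LPS replicate 1). The number of genes fitted also differed between settings. It was 12774 in the edgeR test, 23529 with no filter on low counts and with DESeq2, and 23182 with DESeq2 without LPS replicate 2. The cause of the changes in the number called was not tested.

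The labels number the replicates of both groups, but the deviations of same-numbered libraries correlated at -0.239, 0.219 and 0.0289, so the numbers were not treated as pairs. With a replicate block, 51 of the 12774 genes tested and 2 of the 7 members (ITIH4 and CRP) were called.

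Scaling to library totals moved the median of all genes to -0.12, and leaving out the 10 top genes as well moved it to -0.16. Without 1 library, chosen after seeing the data, the log2 ratios of CRP over ALB, ITIH4 over ALB and ITIH4 over AHSG stayed positive, whereas RBP4 over TTR went from -0.29 to 0.13 and ITIH4 over ITIH3 from -2.14 to 0.17. Of the other named genes, log2 fold changes near 0 changed sign. AMBP was at 0.082 with DESeq2 without LPS replicate 2 and ranged from -0.36 to 0.11 when 1 library was left out. ITIH5 ranged from -0.55 to 0.012 and CD163 from -0.54 to 0.084 when 1 library was left out.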
